A study of Homo sapiens with 12 samples.

Results

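Solute carrier (SLC) genes encode membrane proteins that move amino acids, sugars, metals, ions, vitamins and other small molecules into and out of the cell and its organelles. The regions described here are the m7G peaks that overlap the GRCh38 RefSeq body of a protein-coding gene whose symbol starts with SLC and a digit. They number 195 of the 9958 deposited peaks and lie in 111 of 386 such genes. The rule used symbols and positions, and no measured value. m7G meRIP-seq, in which fragments of RNA that carry 7-methylguanosine are pulled down by an antibody and sequenced, was run on cells labelled as THP-1, a line of human monocytic leukemia cells. Cells of every group had been made adherent with the phorbol ester PMA at 100 ng/ml for 48 h, and all libraries came from polyadenylated RNA. NC is the control and KD carries a short hairpin (shMETTL1) against METTL1, the catalytic subunit of an m7G methyltransferase; libraries named IP hold the pulled-down RNA, and those named IN were treated as the matching input. NC IN, KD IN, NC IP and KD IP, the 4 groups, have 3 libraries each, and the labels do not say whether the KD cells are a pool or a clone, how many hairpins were used, or whether the 3 libraries came from separate cultures, so p values measure the spread between libraries, which may be technical.

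Solute carriers are grouped in families by sequence, and the members of a family often share a class of substrate. The SLC39 (ZIP) proteins bring zinc and related metals into the cytosol and the SLC30 (ZnT) proteins take zinc out of it, several SLC7 proteins pair with the heavy chain SLC3A2 to exchange amino acids, SLC25 proteins sit mostly in the inner mitochondrial membrane, and SLC35 proteins carry nucleotide sugars into the endoplasmic reticulum and Golgi. Macrophages use such carriers to handle iron and zinc, to take up arginine and glutamine, and to export lactate. 7-methylguanosine is best known as the cap at the start of an mRNA, and METTL1 places it in tRNA and at internal sites of some mRNAs.

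The libraries differed in more than the hairpin. Of 30 monocyte and macrophage marker genes, 12 had a peak, among them CD68, ITGAM, SPI1 and LYZ, and none lay in PTPRC, CD14 or CSF1R. Their summed level was 2384 to 2623 CPM (reads scaled to the size of the library) in NC IN and 4373 to 4757 CPM in KD IN. Of their 21 tested regions, in 9 genes, 15 in 8 genes were higher in KD IN and 0 lower. Of 23 neurofilament, keratin, HOXC and oncofetal genes, 16 had a peak, with 20171 to 20736 CPM in NC IN and 6247 to 6482 CPM in KD IN. Of their 31 tested regions, in 16 genes, 27 in 14 genes were lower in KD IN and 3 in 2 genes higher. Over all tested regions of the table, 17.9% were higher in KD IN and 21.9% lower. KRT18 and LIN28B were at 0 reads in KD IN, and a NEFM region had 14330 reads in NC IN against 5 in KD IN. METTL1 itself has no peak, so its level was not measured here and the labels could not be checked against it. All 12 libraries are labelled THP-1, but with these markers it could not be settled here whether the libraries labelled NC and KD come from the same kind of cell, and every KD over NC value below compares the libraries as labelled. The part of this difference in any KD over NC value below was not tested, and the hairpin and the difference in these markers cannot be told apart; fewer cells of a type and less RNA per cell cannot be told apart either. Reads in peaks summed to 907024 to 1105477 in the IN libraries and 1476384 to 1888972 in the IP libraries. SLC regions took 0.741% to 0.767% of them in NC IN, 1.0% to 1.03% in KD IN, 0.779% to 0.851% in NC IP and 0.923% to 1.03% in KD IP. In both kinds of library the KD shares lay above the NC shares. Such sums count the reads of overlapping peaks more than once, and regions with many reads weigh most in them. They do not show a rise across the SLC genes. The median log2 fold of the tested SLC regions, KD over NC, was 0.07 in input and 0.03 in IP.

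A peak over an annotated transcription start is a place where reads could come from the 5′ end of the mRNA. Of the SLC regions with enough reads to test, 20 in 14 genes cover a RefSeq start on the gene's own or the opposite strand, and 7 of these genes are shown because the results below turn on them. Each line gives 15 bases before the start in lower case and the first 15 transcribed bases in capitals, 5′ to 3′ on the gene's strand, from RefSeq on GRCh38.p14. The windows are, in the same order, chr1:100038080-100038109 (+), chr17:81295293-81295322 (-), chr19:49441513-49441542 (-), chr11:93197977-93198006 (-), chr6:44257876-44257905 (-), chr11:62880881-62880910 (+) and chr4:102345468-102345497 (-).
SLC71A1: ttgtgacgcgccgccGGAGGCAGGCCGGGC
SLC38A10: gagcccgtggaaggcGGAAGTGTGAGCGCC
SLC17A7: ccccgggccgcctgcACTTGCAGCCTCCTT
SLC36A4: gggctgtcccactgcGCATGCTCCTCGCCG
SLC35B2: catgggaagtgggacAGAATTACTACCCAG
SLC3A2: cgcctgctgctgagcAGATGCAGTAGCCGA
SLC39A8: ccggagcggatcgcgGAGTTTCACCGCGGA
SLC71A1, SLC38A10, SLC36A4 and SLC39A8 start with G in this annotation, and SLC17A7, SLC35B2 and SLC3A2 with A. Guanine made up 60% of the first 15 bases of SLC71A1, 46.7% of SLC38A10 and 13.3% of both SLC17A7 and SLC35B2, against a median of 26.7% over the 35116 start entries of the table.

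The peaks fell in carriers of every substrate class (plot of peaks by substrate). Amino acid and peptide carriers had the most, 32 peaks in 20 genes, followed by carriers of sodium, protons, calcium, chloride and other inorganic ions with 28 in 14 genes, the SLC35 carriers with 27 in 13, zinc, iron, copper and manganese carriers with 22 in 14, and mitochondrial carriers with 21 in 13. The vitamin and nucleoside carriers had 14 peaks in 8 genes, and choline and lipid carriers and neurotransmitter and creatine carriers 10 each. The fewest were in carriers of monocarboxylates (9), sugars (8) and phosphate (3), and 11 lay in genes of other or unassigned substrate. These groups follow textbook substrate classes, and SLC4A1AP and SLC7A6OS, which have SLC symbols but are not transporters, were placed in the last one after the files had been seen.

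Peaks had been named by the authors for NC (102) or KD (93). The genes divide into 40 with peaks of both sets, 40 with NC peaks alone and 31 with KD peaks alone. Carriers of inorganic ions had 7 NC and 21 KD peaks, and vitamin and nucleoside carriers 10 NC and 4 KD, while the amino acid group had 19 and 13. A peak called in 1 set need not lack reads in the other, and these counts have no replicates and no test. An overlap of 1 base or more between the sets was found for 57 SLC peaks (29.2%), and for 39.1% of all peaks. Merging overlapping peaks left 154 clusters.

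**Figure D1:**
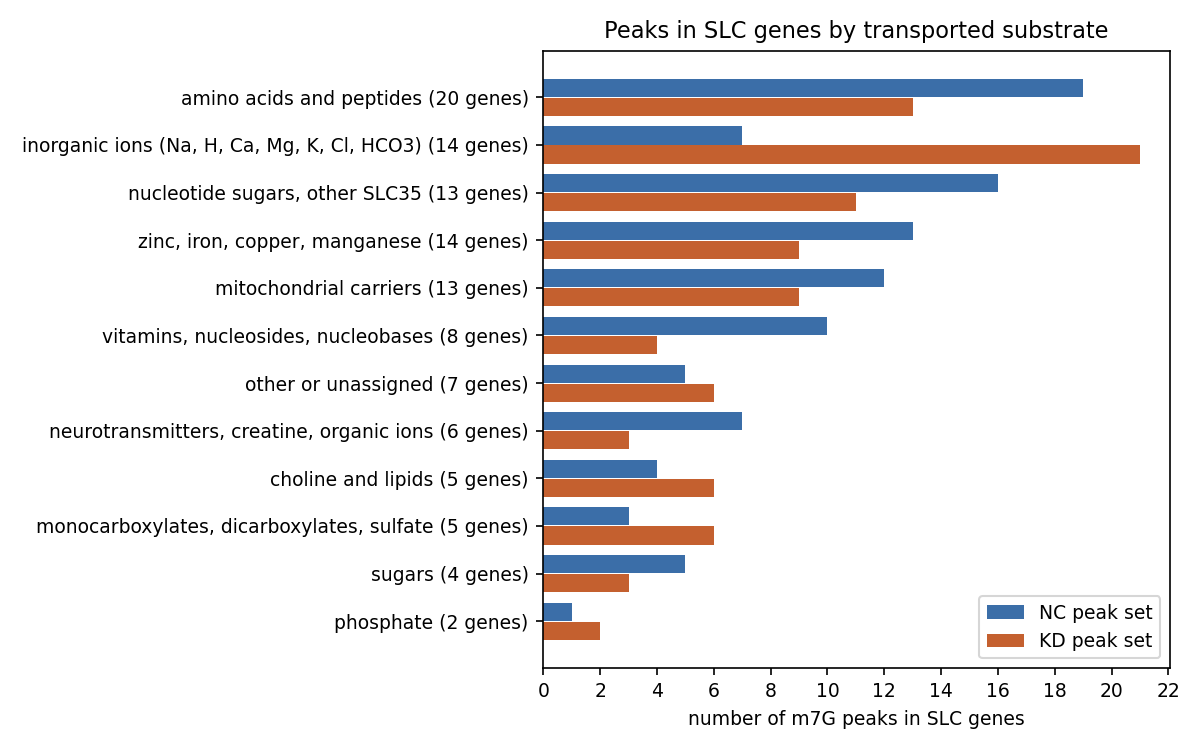
Number of m7G peaks in SLC genes (x axis) for each class of transported substrate (y axis, with the number of genes), drawn separately for peaks of the NC and the KD set. Carriers of inorganic ions have 21 KD and 7 NC peaks, and SLC35 carriers 16 NC and 11 KD.

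A single peak was found in 55 of the 111 genes, and 20 genes had at least 3. The most were in SLC16A3, the lactate exporter MCT4, and in SLC38A10, an amino acid carrier of the SNAT family, with 5 each. SLC25A22, a mitochondrial glutamate carrier, SLC35E4, and SLC5A6, which takes up biotin and pantothenate, were among those with 4. All 4 peaks of SLC35E4 were in the NC set, as were all 3 of SLC46A1, the proton-coupled folate transporter, and all 3 of SLC48A1, which carries heme; none of these 3 genes had a KD peak. The 3 peaks each of SLC12A9, SLC2A3, SLC35A5, SLC35B2, SLC35C1, SLC39A10, SLC39A3, SLC44A1, SLC6A12, SLC6A8 and SLC7A6 came from both sets.

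Against the RefSeq annotation, which gave gene bodies and starts but no exons, coding or untranslated parts, SLC peaks were placed with shares close to those of peaks in other genes. Of the 165 SLC peaks in a gene with a known strand, 35 (21.2%, exact 95% interval 15.2% to 28.2%) covered a start, against 21.3% of 7213 peaks in 1 other gene. The first 10% of the gene body held the middle of 32.7% of SLC peaks and of 33.8% of the others, and the last 10% held 29.7% and 27.9%. The intervals cover counting error only, and peaks of 1 gene share their source. SLC peaks had a median length of 152 bases and all peaks 182 bases. Of the 165, 148 lay on the gene's strand and 17 on the other, and 14 of the 17 also lay in another gene; 31 peaks in all lay in several genes, such as SLC16A3 with CSNK1D, SLC5A6 with ATRAID, SLC4A8 with GALNT6 and SLC48A1 with HDAC7. Peaks that overlapped on opposite strands had nearly the same reads (130 pairs over the table, median ratio 0.933), so reads of a gene and its antisense neighbour could not be separated and values in such regions are uncertain.

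Reads limited what could be tested. A region entered the tests when edgeR's filterByExpr kept it, and 80 SLC regions in 50 genes and 55 clusters passed, of 5113 regions in the table. This is 41.0% of the SLC regions against 51.3% of all. The 115 others had 1 to 101 reads over all 12 libraries, with a median of 20, and 61 genes had no other region. The tested ones had 57 to 17320 reads, with a median of 371. A region passes more easily where 1 group is high, so the counts below describe the regions tested and not all SLC peaks, and a difference in the other 115 was not detectable at this depth. CPM values below use TMM-scaled totals of tested regions, and levels of different genes are not compared because they are not per length. All log2 values and adjusted p values below are from edgeR's quasi-likelihood test with Benjamini-Hochberg adjustment over the 5113 regions, with a threshold of 0.05. The standard errors (SE) are approximate. Each was computed as the absolute log2 value divided by the square root of the F statistic of that test, because the test itself gives none.

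In NC cells, IP over input separated SLC regions in both directions. Of the 80 tested, 42 in 26 genes passed, 27 higher and 15 lower in NC IP than in NC IN. The background over all tested regions was 46.7% called, 22.7% higher and 24% lower. The median log2 fold of the SLC regions was 0.34, against 0.13 for all. With 1 value per cluster, 16 clusters were higher and 11 lower. Regions whose 3 NC IP libraries lay entirely above or below the 3 NC IN libraries numbered 50 of 80, and over all regions 57.8%. In KD cells, 33 regions in 22 genes passed, 16 higher and 17 lower in KD IP, against a background of 44.9% called, 23.5% higher and 21.4% lower. The medians were 0.38 and 0.23, the clusters 9 higher and 13 lower, and 51 regions did not overlap, against 56.6%. IP over input here sets a region against the average peak region, and another scaling shifts the split. Scaled by library size without TMM, all regions had a median of 0.42 (NC) and 0.40 (KD), in place of 0.13 and 0.23. The share of called regions that were higher went from 48.6% to 67.2% in NC, from 52.3% to 63.6% in KD, and the SLC calls became 30 higher and 12 lower in NC and 20 and 10 in KD.

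SLC71A1, also named MFSD14A, an orphan carrier of the major facilitator type, had a region at chr1:100038094-100038274 (+) that covers the start shown above. NC IN libraries had 572, 577 and 542 CPM and NC IP libraries 1190, 1038 and 1028 CPM. KD IN libraries had 877, 783 and 847 CPM and KD IP libraries 1287, 1440 and 1574 CPM. Every IP library lay above every IN library of its own condition. The log2 fold of IP over input was 0.95 ± 0.10 (SE; adjusted p = 7.09e-08) in NC and 0.78 ± 0.10 (adjusted p = 1.14e-06) in KD.

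SLC17A7, a vesicular glutamate carrier known from neurons, had almost no input reads in its region at chr19:49441459-49442360 (-), which also covers the start shown. NC IN had 0, 2.53 and 1.16 CPM (3 reads) and NC IP 18.6, 34.2 and 27.7 CPM (134 reads). KD IN had 0 reads in all 3 libraries and KD IP 28.3, 18.4 and 12.4 CPM (110 reads). The groups did not overlap in either condition: NC IP was 23-fold above NC IN (95% counting interval 7.69 to 113; adjusted p = 3.33e-05), and KD IP was at least 19.7-fold above KD IN, taking 3 counts in the whole group as the floor (adjusted p = 9.64e-06). Without NC IN library 2 the fitted log2 fold in NC moved from 4.43 to 5.44.

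An ion carrier also had high IP over few input reads. SLC4A8, a sodium-bicarbonate transporter, has a peak at chr12:51391643-51391883 opposite to its strand and within GALNT6, with 2.10, 1.26 and 0 CPM in NC IN, 21.2, 15.6 and 19.5 in NC IP, 6.09, 1.91 and 7.61 in KD IN and 20.8, 22.4 and 13.7 in KD IP. NC IP was 16.4-fold higher (interval 5.46 to 81.2; adjusted p = 0.000101) and KD IP 1.87 ± 0.55 higher on the log2 scale (adjusted p = 0.00764). Without NC IN library 1 the fitted NC value moved from 3.93 to 4.81. Which of the overlapping genes these reads belong to was not tested.

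SLC38A10 had its region over the start shown above, at chr17:81295104-81295457 (-). It had 3.14, 0 and 0 CPM in NC IN, 4.77, 9.96 and 8.81 in NC IP, 3.05, 0.956 and 0 in KD IN and 7.47, 6.97 and 18 in KD IP. The libraries did not overlap, and NC IP was 6.68-fold higher (interval 2.12 to 33.8; adjusted p = 0.0293) and KD IP 2.90 ± 0.90 higher on the log2 scale (adjusted p = 0.0114). At this depth single libraries decided the call: in NC it was lost without NC IN library 2 or 3 or NC IP library 2 or 3 (adjusted p = 0.0646 to 0.0950), and in KD without KD IN or KD IP library 3 (0.0531 and 0.0664). SLC12A9, of the cation-chloride cotransporter family, had 0, 7.58 and 2.31 CPM in NC IN and 30.8, 19.9 and 17 in NC IP near its 3′ end (chr7:100866142-100866801), a log2 fold of 2.83 ± 0.67 (adjusted p = 0.00114). Without NC IN library 2 that value was 4.30. In KD the same region did not pass (1.17 ± 0.52; adjusted p = 0.0701). A shorter region that overlaps it, chr7:100866142-100866472, gave 2.93 ± 0.76 in NC (adjusted p = 0.00277) and in KD 1.75 ± 0.60 (adjusted p = 0.0207), a call lost without KD IN library 1 or 3 or KD IP library 2 (adjusted p = 0.0640 to 0.101), and 2.87 without KD IN library 2.

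Among the carriers of nucleotide sugars and vitamins, SLC35D4, also named TMEM241, a Golgi carrier, had 2.10, 0 and 1.16 CPM in NC IN and 12.2, 10.6 and 10.7 in NC IP (chr18:23437811-23437961). That is a 9.77-fold difference with no overlap (interval 3.18 to 48.8; adjusted p = 0.00396), and the fitted log2 value moved from 3.19 to 4.07 without NC IN library 1. The KD groups had 1 and 15 reads and did not pass. SLC5A6 had 4 overlapping regions on both strands that all lie in ATRAID as well. In the one at chr2:27212070-27212190, IP was above input by 1.07 ± 0.41 in NC (adjusted p = 0.0349) and by 1.33 ± 0.43 in KD (adjusted p = 0.0156). The KD call was lost without KD IN library 1 or 3 or KD IP library 3 (adjusted p = 0.0553 to 0.0942).

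Several zinc carriers were lower in IP. Of the 15 tested regions of zinc, iron, copper and manganese carriers, 7 in 5 genes were lower in NC IP and 4 higher, and 7 in 5 genes were lower in KD IP and 0 higher. These are 46.7% lower and 26.7% higher in NC, against 24% and 22.7% of all tested regions, and 46.7% lower in KD, against 21.4%. The median log2 fold of the class was -0.09 in NC and -0.55 in KD, so in NC the class held calls in both directions. With library size alone these counts were 7 lower and 4 higher in NC and 5 lower and 1 higher in KD. SLC39A7, which releases zinc from the endoplasmic reticulum, had a region of 62 bases at chr6:33202571-33202632 (+). Its NC IN libraries had 723, 857 and 896 CPM and its NC IP libraries 387, 347 and 385 CPM. KD IN had 1160, 1238 and 1312 CPM and KD IP 607, 561 and 598 CPM. No IP library reached any input library of its condition, and the log2 folds were -1.14 ± 0.11 (adjusted p = 5.57e-09) in NC and -1.07 ± 0.10 (adjusted p = 1.19e-08) in KD.

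SLC39A1, a zinc importer of the plasma membrane, had a region near its 3′ end at chr1:153959907-153960088 (-). It had 642, 642 and 653 CPM in NC IN, 280, 318 and 312 in NC IP, 900, 836 and 790 in KD IN and 350, 365 and 359 in KD IP. IP was lower in every library, by -1.09 ± 0.10 on the log2 scale in NC (adjusted p = 6.79e-09) and -1.23 ± 0.10 in KD (adjusted p = 8.27e-10). SLC39A6, a further zinc importer, was lower near its 3′ end by -0.76 ± 0.15 (adjusted p = 0.000174) and -0.67 ± 0.16 (adjusted p = 0.00124). SLC39A8, which carries zinc and manganese, had 74.4, 106 and 90.2 CPM in NC IN and 38.7, 47.3 and 34 in NC IP over its start, shown above. The log2 fold was -1.17 ± 0.23 (adjusted p = 0.000179) in NC and -0.55 in KD, where it did not pass (adjusted p = 0.0564). SLC30A5, which loads zinc into the secretory pathway, was lower near its 5′ end by -1.12 ± 0.26 in NC (adjusted p = 0.00115). In KD it was lower by -0.62 ± 0.25 (adjusted p = 0.0458), a call lost without any 1 of 9 libraries, namely all of NC IP, KD IN and KD IP (adjusted p = 0.0532 to 0.151).

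SLC39A3, also a zinc importer, differed from these. Its 3 tested regions were all higher in NC IP, and the 5′ one at chr19:2739990-2740048 (-) had 7.33, 3.79 and 8.09 CPM in NC IN and 21.7, 23 and 31.5 CPM in NC IP. The log2 fold was 1.96 ± 0.49 (adjusted p = 0.00206). The SLC39 family as a whole, 12 tested regions in 7 genes, had 6 regions in 4 genes lower and 3 in SLC39A3 higher in NC IP. In KD IP, 5 regions in 3 genes were lower and 0 higher, and with library size alone 5 lower and 1 higher. SLC48A1, the other metal carrier with higher IP in NC, passed by a small margin only (2.01 ± 0.82; adjusted p = 0.0484) and lost the call without any 1 of 8 libraries, NC IN 2 and 3, NC IP 3, KD IN 1 and 2 and all of KD IP (adjusted p = 0.0514 to 0.177). Without NC IN library 1 its value was 2.93. The SLC48A1 region with the most reads had 66.0, 72.0 and 86.7 CPM in NC IN and 64.2, 74.1 and 72.4 in NC IP, which overlapped. In KD that region had 118, 113 and 94.6 CPM in input and 67.8, 79.7 and 83.2 in IP, with IP below input.

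Single carriers of other classes were lower in IP, while the amino acid class and the vitamin and nucleobase class held calls in both directions. Amino acid regions were 4 higher (3 genes) and 2 lower (1 gene) of 14 in NC IP and 3 and 3 (2 genes each) in KD IP. Vitamin and nucleobase regions were 4 higher and 1 lower of 6 in both, and the 4 higher ones form 1 cluster, in SLC5A6. SLC3A2, the heavy chain CD98 that pairs with SLC7 light chains, had 881, 797 and 904 CPM in NC IN and 522, 474 and 558 in NC IP over one of its annotated starts (chr11:62880458-62881199, +). KD IN had 1081, 1116 and 1122 CPM and KD IP 755, 754 and 893. IP lay below input in every library, with log2 folds of -0.73 ± 0.10 (adjusted p = 3.02e-06) and -0.47 ± 0.10 (adjusted p = 0.000655). SLC43A3, a purine nucleobase transporter, was lower by -0.45 ± 0.13 in NC (adjusted p = 0.00795) and -0.86 ± 0.12 in KD (adjusted p = 2.48e-06). The NC call was lost without NC IP library 1 or NC IN library 2 (adjusted p = 0.0516 and 0.0547) and, with library size alone, at adjusted p = 0.333. In the other tested region of SLC43A3, IP and input libraries overlapped in both conditions. It had 93.2, 115 and 113 CPM in NC IN and 95.5, 114 and 99.4 in NC IP. In KD it had 303, 306 and 235 CPM in input and 241, 234 and 210 in IP. SLC16A3 was lower by -0.48 in NC (adjusted p = 0.00321) and -0.37 in KD (adjusted p = 0.0157) in the region it shares with CSNK1D (chr17:82238761-82239121), but neither passed with library size alone (adjusted p = 0.216 and 0.172). The NC call was also lost without NC IN library 3 (0.0531) and the KD call without KD IN library 2 or KD IP library 2 or 3 (0.0559 to 0.0688).

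Regions of inorganic ion carriers were more often higher in IP. Of the 11 tested, 7 in 4 genes were higher and 2 in 2 genes lower in NC IP. In KD IP, 6 in 4 genes were higher and 2 in 2 genes lower. The higher ones are 63.6% in NC and 54.5% in KD, against 22.7% and 23.5% of all tested regions, and some had few input reads. Among the lower ones, SLC9D1, also named TMCO3, a putative sodium-proton exchanger, had 63.9, 120 and 94.8 CPM in NC IN and 43.0, 27.4 and 39.6 in NC IP (chr13:113498431-113498582). The log2 fold was -1.32 ± 0.23 (adjusted p = 3.75e-05) in NC and -0.87 ± 0.21 (adjusted p = 0.00156) in KD, with no overlap between the groups. SLC41A1, a magnesium carrier, was lower in NC (-1.22 ± 0.35; adjusted p = 0.00576), while in KD its libraries overlapped. SLC24A1, a potassium-dependent sodium-calcium exchanger, was higher in both, by 0.45 ± 0.14 (adjusted p = 0.0129) and 0.81 ± 0.17 (adjusted p = 0.000329). SLC20A1, a phosphate importer, was lower in KD IP in the region near its 3′ end (-0.63; adjusted p = 0.0308), a call lost without KD IN library 1 or any 1 of the KD IP libraries (adjusted p = 0.0521 to 0.122). SLC4A1AP, a nuclear protein with an SLC symbol, was lower by -1.08 ± 0.13 (adjusted p = 1.6e-07) and -0.95 ± 0.13 (adjusted p = 1.08e-06).

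**Figure D2:**
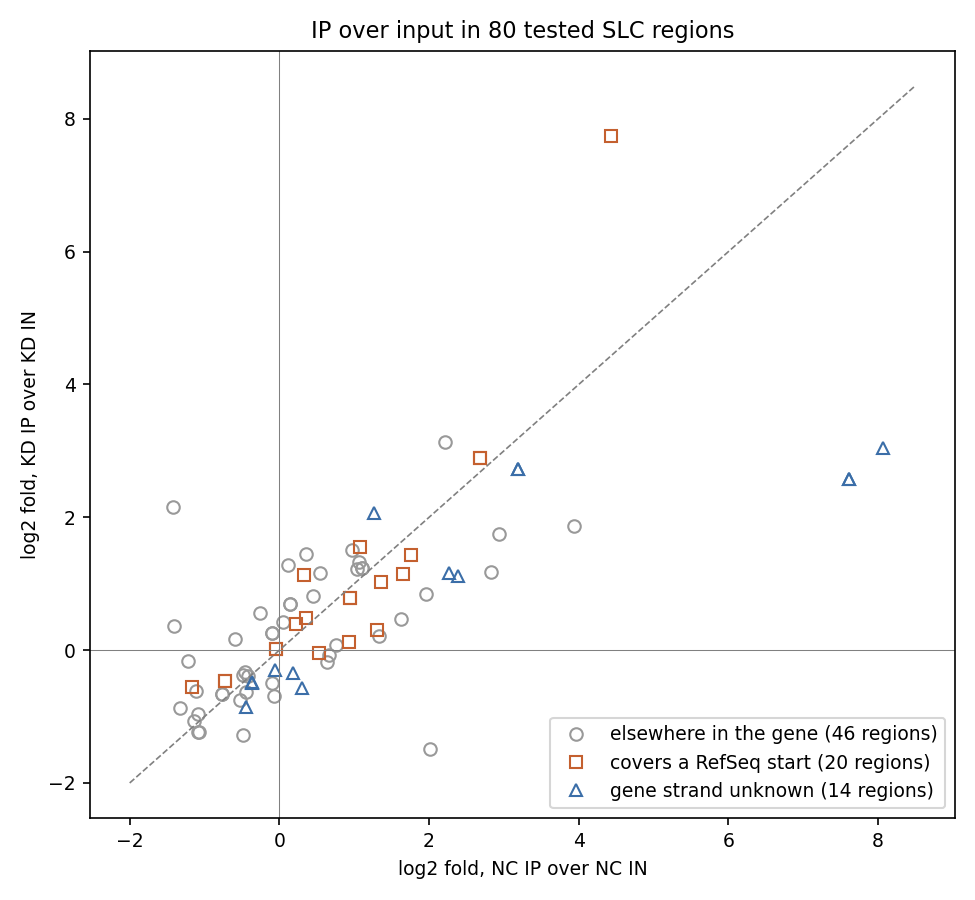
Log2 fold of IP over input in NC (x axis) and KD (y axis) for the 80 tested SLC regions, with colours for regions that cover a RefSeq start, regions elsewhere and regions of unknown gene strand; the dashed line marks equal values. SLC39A7 and SLC39A1 sit below 0 on both axes and SLC71A1 above 0 on both, and the farthest points, SLC17A7 among them, are fitted against an input group at 0 reads and are no bound.

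Regions over a start had the higher medians. The 20 tested SLC regions over a start (14 genes) had a median log2 fold of 0.94 in NC and 0.63 in KD, and the 46 elsewhere (30 genes) -0.02 and 0.24; 14 regions lay in genes of unknown strand. In peaks of other genes the medians were 0.54 and 0.55 over a start and -0.12 and 0.01 elsewhere. Over SLC starts, 6 regions of the 20 were higher and 3 lower in NC IP, and 5 higher and 2 lower in KD IP. Of the 46 SLC regions elsewhere, 14 were higher and 11 lower in NC IP, and 7 higher and 14 lower in KD IP. The share called higher in NC IP was thus close to that over starts. Of the 1072 start regions of other genes, 345 were higher and 134 lower in NC IP, and 344 higher and 156 lower in KD IP. Of their 2684 regions elsewhere, 456 were higher and 838 lower in NC IP, and 479 higher and 720 lower in KD IP. The range over starts, from -1.17 (SLC39A8) to 4.43 (SLC17A7) in NC, overlapped widely with the range elsewhere, and no test of position was made.

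The input libraries give the RNA level of the peak regions without the antibody, and KD IN over NC IN asks which carriers differed in RNA. Of 80 tested SLC regions, 32 in 23 genes passed, 20 higher in KD IN (13 genes) and 12 lower (10 genes), against a background of 39.8% called, 17.9% higher and 21.9% lower. By cluster, 14 were higher and 10 lower. The median log2 fold was 0.07, and -0.01 over all regions. Libraries of the groups did not overlap in 34 of 80 regions, against 44.8% of all. Regions of 1 gene can overlap and hold the same reads, so genes are given as well. In the amino acid group 4 regions in 2 genes were higher and 4 in 4 genes lower. In the zinc and metal group these were 4 in 3 genes and 3 in 2 genes. Among inorganic ions 1 region was higher and 2 in 2 genes lower, and among mitochondrial carriers 1 and 1. All called regions were higher among neurotransmitter and creatine carriers (3 of 5 tested, 2 genes), monocarboxylate carriers (2 of 2, 1 gene), vitamin and nucleobase carriers (2 of 6, both in SLC43A3), SLC35 carriers (1 of 7) and the unassigned group (2 of 7, both in SLC71A1). Both regions of the choline carrier were lower, and none passed among the sugar (2) and phosphate (2) regions.

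SLC8A1, the plasma membrane sodium-calcium exchanger NCX1, rose in KD IN (chr2:40428497-40428588, -). NC IN libraries of SLC8A1 had 3.14, 6.32 and 4.62 CPM and KD IN libraries 27.4, 26.8 and 51.1 CPM. The lowest KD library was above the highest NC library, and the fold was 7.43 (log2 2.89 ± 0.57; adjusted p = 0.000233). SLC6A6, the taurine transporter, behaved alike near its 3′ end (chr3:14485162-14485312), with 7.33, 7.58 and 2.31 CPM in NC IN and 29.5, 34.4 and 30.4 in KD IN, a 5.41-fold difference (log2 2.44 ± 0.50; adjusted p = 0.000399). SLC6A12, which carries betaine and GABA, had 0, 2.53 and 3.47 CPM in NC IN and 12.2, 11.5 and 9.79 in KD IN (chr12:213533-213977), with no overlap. Its log2 fold was 2.48 ± 0.72 (adjusted p = 0.00785) and moved to 3.22 without NC IN library 3.

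SLC43A3 had the smallest adjusted p of the SLC regions, in one of a pair of regions that do not overlap. At chr11:57426276-57426623 (-) its NC IN libraries had 141, 150 and 144 CPM and its KD IN libraries 445, 441 and 399 CPM. The spread within each group was small beside the gap, and the fold was 2.95 (log2 1.56 ± 0.13; adjusted p = 5.88e-10). At chr11:57427071-57427415 the levels were 93.2, 115 and 113 CPM against 303, 306 and 235 CPM (log2 1.40 ± 0.15; adjusted p = 7.57e-08). SLC71A1 rose by 0.57 ± 0.11 (adjusted p = 0.000126), from the input levels given above.

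Amino acid carriers moved in both directions. SLC36A4, a lysosomal and plasma membrane amino acid transporter of the PAT family, had 131, 72.0 and 90.2 CPM in NC IN and 148, 175 and 184 in KD IN in a region over its start (chr11:93197429-93197991, -; log2 0.78 ± 0.19; adjusted p = 0.00174). SLC3A2 rose by 0.36 ± 0.10 (adjusted p = 0.00735). SLC7A1, the arginine and lysine transporter CAT1, fell in the last part of the gene (chr13:29510520-29510610, -), from 73.3, 74.5 and 55.5 CPM to 30.5, 36.3 and 22.8 CPM. The groups did not overlap, and the log2 fold was -1.17 ± 0.29 (adjusted p = 0.00191). SLC1A5, the glutamine transporter ASCT2, had 48.2, 44.2 and 43.9 CPM in NC IN and 27.4, 26.8 and 18.5 in KD IN (chr19:46775060-46775240, -; log2 -0.90 ± 0.30; adjusted p = 0.0191), a call lost without NC IN library 1 (0.0675) or KD IN library 3 (0.0995).

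SLC38A1, the glutamine transporter SNAT1, had 15.7, 24.0 and 11.6 CPM in NC IN and 5.08, 8.60 and 0 in KD IN (chr12:46268865-46268956, -). The libraries did not overlap, but the call (log2 -1.84 ± 0.71; adjusted p = 0.0419) was lost without any 1 of 9 libraries, NC IN 1 and 2, NC IP 2 and 3, KD IN 1 and 3 and all of KD IP (adjusted p = 0.0507 to 0.154), and without KD IN library 2 the value was -2.64. SLC6A17, a vesicular carrier of neutral amino acids known from neurons, had 5.24, 8.84 and 2.31 CPM in NC IN (14 reads) and 0 reads in KD IN (chr1:110199750-110200140, +). It was at least 5.27-fold lower in KD IN (floor of 3 counts over the group; adjusted p = 0.00419). SLC1A3, the glial type glutamate transporter, had too few reads for a test: 0 reads in each NC IN library and 9, 10 and 7 reads in the KD IN libraries.

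A sequence in the promoters of amino acid carriers is given for reference. The letters TGATGNAA, read on either strand, make up the composite element bound by CCAAT-enhancer-binding and ATF proteins, known from genes that respond to amino acid shortage. They occur in the 300-base promoter window of 6 of the 18 amino acid carriers with a peak and an entry in the RefSeq table (GRCh38.p14), and of 7 of the 93 SLC genes (7.53%). The share is 2.39% of 4394 other genes with a peak and 4.46% of the 27305 genes in the table. The genes with a called input difference are shown with the match in capitals, on the gene's strand, from chr19:46784893-46784922 (-), chr13:29595663-29595692 (-), chr12:46266502-46266531 (-) and chr11:62881725-62881748 (+).
SLC1A5: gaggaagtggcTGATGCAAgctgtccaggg
SLC7A1: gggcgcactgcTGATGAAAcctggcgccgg
SLC38A1: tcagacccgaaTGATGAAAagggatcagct
SLC3A2: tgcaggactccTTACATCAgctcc
The matches of SLC1A5 and SLC38A1 begin 97 and 4 bases before an annotated start, and those of SLC7A1 and SLC3A2 begin 8 and 38 bases after one. For SLC3A2 it is another start than that shown above. None of these windows lies in the tested region given for its gene. SLC1A5, SLC7A1 and SLC38A1 were lower in KD IN and SLC3A2, with the match on the other strand, higher. SLC17A7 also has a match and did not pass, and SLC1A3 has one and was not tested. Other motifs were counted in the same windows, and this one was picked from them. The metal response element core occurs in 76.3% of the SLC genes and 72.2% of the other genes with a peak. These shares are 80.6% and 79.4% for the Sp1 site, 4.30% and 7.85% for the TATA box, and 21.5% and 13.5% for the TFEB-type E-box. The letters were chosen with the members known, so the shares are a description, and a match is not a site or a cause.

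Zinc and iron carriers were split by gene. SLC39A7 rose from 723, 857 and 896 CPM in NC IN to 1160, 1238 and 1312 in KD IN (log2 0.58 ± 0.10; adjusted p = 8.01e-05). SLC39A1 rose by 0.38 ± 0.10 (adjusted p = 0.00394). In its region with the most reads, SLC48A1 had 66.0, 72.0 and 86.7 CPM in NC IN and 118, 113 and 94.6 in KD IN, with no overlap. SLC39A6 fell near its 3′ end (chr18:36109039-36109279, -), from 193, 253 and 232 CPM to 124, 123 and 146 CPM. Its groups did not overlap, and the log2 fold was -0.79 ± 0.15 (adjusted p = 0.000233). SLC39A8 was lower by -0.64 ± 0.23 (adjusted p = 0.0309), a call lost without NC IN library 2 or 3 or KD IN library 1 or 3 (adjusted p = 0.0808 to 0.174). Over the 12 tested SLC39 regions, 3 in 2 genes were higher and 3 in 2 genes lower.

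Mitochondrial carriers gave a pair of calls. SLC25A38, which imports glycine for heme synthesis, had 12.6, 15.2 and 10.4 CPM in NC IN (33 reads) and 1.02, 0 and 0 in KD IN (1 read), near its 5′ end (chr3:39383399-39383579, +). The ratio was 37.3 (95% counting interval 6.24 to 1517; adjusted p = 0.000413). The fitted log2 value moved from -4.89 to -7.10 without KD IN library 1, which held the only read. SLC25A37, the iron importer mitoferrin 1, had 35.6, 50.5 and 25.4 CPM in NC IN and 65.0, 63.1 and 76.1 in KD IN (chr8:23528985-23529196; log2 0.88 ± 0.27; adjusted p = 0.0126), a call lost without NC IN library 3 (0.0516).

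The other classes were represented by few genes. SLC24A1 fell 3.45-fold, from 196, 201 and 156 CPM in NC IN to 54.8, 49.7 and 55.5 in KD IN (chr15:65650426-65650877, +; log2 -1.79 ± 0.17; adjusted p = 4.6e-09). Every KD library was far below every NC library. SLC44A2, a choline transporter-like protein, had 12.6, 21.5 and 26.6 CPM against 6.09, 2.87 and 6.52 CPM near its 3′ end (chr19:10643901-10644080, +; log2 -1.96 ± 0.55; adjusted p = 0.00578). SLC41A1 was lower by -0.94 ± 0.36 (adjusted p = 0.0395), a call lost without any 1 of the NC IN libraries, KD IN library 1 or 2 or KD IP library 1 (adjusted p = 0.0529 to 0.186). SLC35B2, which brings the sulfate donor PAPS into the Golgi, rose from 17.8, 17.7 and 24.3 CPM to 47.7, 34.4 and 51.1 CPM over the start shown above (chr6:44257800-44257890, -; log2 1.15 ± 0.31; adjusted p = 0.0041).

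SLC16A3 had 229, 240 and 272 CPM in NC IN and 342, 399 and 357 in KD IN, with no overlap (log2 0.57 ± 0.13; adjusted p = 0.000808). SLC2A3, the glucose transporter GLUT3, had 75.4, 55.6 and 53.2 CPM against 97.5, 78.4 and 72.9 CPM. Its libraries overlapped and the difference did not pass (log2 0.43 ± 0.23; adjusted p = 0.142).

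**Figure D3:**
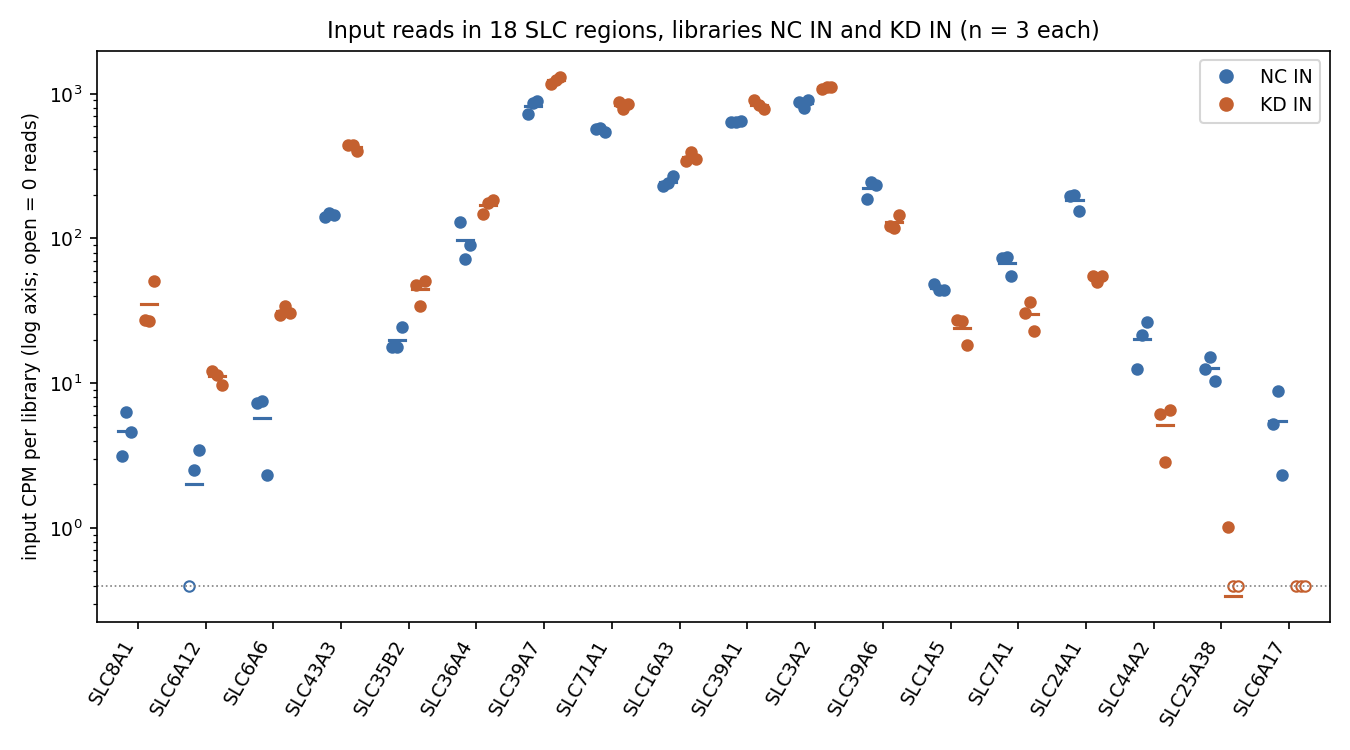
Input CPM of each library (y axis, log scale; open symbols for 0 reads) in 18 SLC regions, with NC IN and KD IN shown as separate points (n = 3 each) and short bars at the mean of each group. The 18 were picked from the regions called in KD IN over NC IN and leave out some of those. They do not stand for the 80 tested regions, of which 48 were not called. SLC8A1, SLC6A6 and SLC43A3 have all KD points above all NC points, while SLC24A1, SLC7A1 and SLC25A38 have them below.

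Among the immunoprecipitated libraries, KD IP over NC IP gave 35 SLC calls in 22 genes, 19 higher (12 genes) and 16 lower (10 genes). The background was 41% called, 20.9% higher and 20.1% lower. The clusters were 13 higher and 11 lower, the median log2 fold was 0.03 against 0.05 for all, and 46 of 80 regions did not overlap, against 57.9%. In the amino acid group 4 regions in 2 genes were higher and 3 in 3 genes lower. Among zinc and metal carriers 1 region was higher and 6 in 3 genes lower. Neurotransmitter and creatine carriers had 3 higher in 2 genes and 2 lower in 1 gene, and SLC35 carriers the same numbers. Carriers of inorganic ions had 2 higher in 2 genes and 1 lower. A difference in IP carries the RNA level with it, so each value stands beside the input one. SLC43A3 rose in IP by 1.15 ± 0.13 (adjusted p = 5.74e-08), from 98.7, 118 and 102 CPM to 239, 244 and 223 CPM. SLC8A1 had 5.83, 2.49 and 1.26 CPM in NC IP and 17.1, 13.4 and 12.4 in KD IP (log2 2.09 ± 0.54; adjusted p = 0.00309; 2.87 without NC IP library 1). SLC6A6 rose from 6.90, 5.60 and 8.81 CPM to 25.1, 24.4 and 13.7 CPM (1.56 ± 0.44; adjusted p = 0.0057).

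SLC35B2 and SLC36A4, which have their regions over a start, rose in IP with the input. SLC35B2 went from 21.7, 25.5 and 22.7 CPM to 62.4, 64.2 and 47.2 CPM (1.32 ± 0.26; adjusted p = 0.000255), and SLC36A4 from 106, 87.8 and 93.1 to 153, 182 and 179 CPM (0.84 ± 0.17; adjusted p = 0.000351). In both, all KD libraries lay above all NC libraries. SLC39A7 rose by 0.66 ± 0.11 (adjusted p = 1.62e-05), SLC3A2 by 0.63 ± 0.10 (adjusted p = 2.44e-05) and SLC16A3 by 0.68 ± 0.12 (adjusted p = 7.27e-05). SLC6A12 rose by 1.20 ± 0.46 (adjusted p = 0.0372), a call lost without NC IP library 1 or 2 or KD IP library 2 or 3 (adjusted p = 0.0905 to 0.170). SLC35E1, of the SLC35 family, was higher in KD IP by 2.40 ± 0.71 (adjusted p = 0.00863), from 12 reads in NC IP, and lost the call without NC IP library 3 (0.0660). SLC9D1 rose in IP by 0.91 ± 0.22 (adjusted p = 0.00174), while its input did not pass.

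SLC1A5 and SLC7A1, which carry glutamine and arginine, fell in IP as in input, while the glutamine transporter SLC38A1 did not pass in IP (log2 -0.07 ± 0.66; adjusted p = 0.939). SLC1A5 had 43.5, 43.6 and 42.2 CPM in NC IP and 14.9, 16.9 and 13 in KD IP, 2.86-fold lower with no overlap (log2 -1.51 ± 0.29; adjusted p = 0.000123). SLC7A1 fell from 42.4, 57.9 and 40.9 to 17.6, 21.4 and 14.3 CPM (-1.39 ± 0.28; adjusted p = 0.000238). SLC6A17 fell from 27.1, 32.4 and 17 CPM to 1.07, 0.996 and 0 CPM (4 reads), a fitted 31.4-fold difference (adjusted p = 8.55e-06). SLC24A1 fell by 1.43 on the log2 scale (SE 0.14; adjusted p = 1.6e-08), SLC39A6 by 0.69 (SE 0.15; adjusted p = 0.000652) and SLC44A2 by 1.41 (SE 0.45; adjusted p = 0.0139). The SLC44A2 call was lost without NC IP library 3 or KD IP library 2 or 3 (adjusted p = 0.0659 to 0.0675).

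Some carriers fell in IP with no called difference in input. SLC6A8, the creatine transporter, had 41.9, 39.2 and 34.7 CPM in NC IN and 41.6, 33.5 and 21.7 in KD IN (chrX:153695538-153695809). Its NC IP libraries had 61.5, 57.9 and 61.0 CPM and its KD IP libraries 25.1, 30.9 and 29.8 CPM. The input libraries overlapped and the IP libraries did not, and the IP log2 fold was -1.07 ± 0.25 (adjusted p = 0.00127). SLC39A3 fell in IP in its 3 tested regions, from 21.7, 23 and 31.5 to 10.1, 8.46 and 13 CPM in the 5′ one (-1.27 ± 0.42; adjusted p = 0.0181), while its input, 7.33, 3.79 and 8.09 against 5.08, 5.74 and 6.52 CPM, overlapped. In its other cluster the call (-1.46 ± 0.46; adjusted p = 0.0136) was lost without NC IP library 3 or KD IP library 2 (0.0754 and 0.0910). SLC35D4 fell in IP by 1.98 on the log2 scale (SE 0.65; adjusted p = 0.0174), a call lost without NC IP library 1 or 3 or KD IP library 1 or 2 (0.0509 to 0.0948). SLC48A1 had a peak opposite to its strand with 48 reads in NC IP and 1 in KD IP (chr12:47770859-47771040). The ratio was 51.9 (interval 8.88 to 2092, adjusted p = 0.000243), its fitted log2 value moved from -5.11 to -6.63 without KD IP library 1, and its input held 6 reads in NC and 2 in KD. In the SLC48A1 region with the most reads the IP libraries overlapped, with 64.2, 74.1 and 72.4 CPM in NC IP and 67.8, 79.7 and 83.2 in KD IP.

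**Figure D4:**
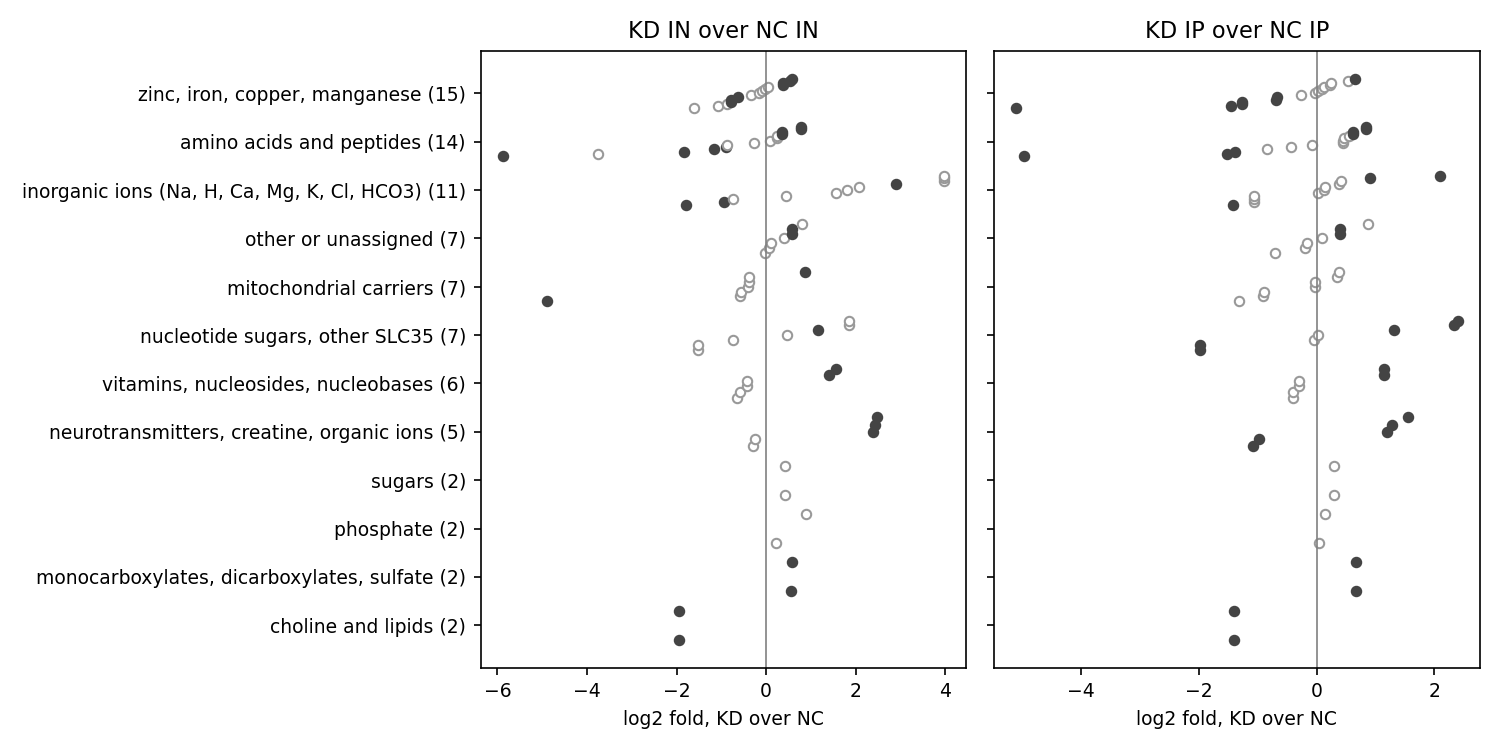
Log2 fold of KD over NC in input and in IP (x axes) for the tested SLC regions by substrate class (y axis), one point per region, with called regions filled; points fitted against a group at 0 reads, such as SLC6A17 in input, are no bound. Amino acid and zinc carriers have called points on both sides of 0 in both panels, and the called choline carrier points lie below 0 in both.

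The ratio of IP to input in KD, set against the same ratio in NC, is the change in enrichment and asks whether the pull-down itself differed between the conditions. None of the 80 SLC regions passed in edgeR's test, with a background of 0% over the 5113 regions. At an unadjusted p under 0.05 there were 7 SLC regions and 610 over all, and DESeq2 called 0 SLC regions and 21 over all. The median SLC value was 0.06 and that of all regions 0.08. A value that missed the threshold does not show that enrichment was alike in NC and KD, and the standard errors of single regions were wide. Among the SLC regions with the smallest p, SLC25A38 had 3.57 ± 1.38 (adjusted p = 0.315), resting on 1 read in KD IN. SLC43A3 had -0.41 ± 0.18 (adjusted p = 0.373), SLC6A8 -0.82 ± 0.38 (adjusted p = 0.388) and SLC41A1 1.06 ± 0.50 (adjusted p = 0.397). The lower IP of SLC6A8 and SLC39A3 in KD is therefore a difference in IP, and their change in enrichment did not pass (SLC39A3 adjusted p = 0.554 in the 5′ region).

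The authors' deposited table holds its own p values for this change. By the authors' deposited table, 0 SLC peaks passed an adjusted p of 0.05, and the smallest values in it were 0.183, in SLC35E4, and 0.195, in SLC43A3. The fold enrichment in the authors' deposited table had a median of 9.87 over the SLC peaks, in a range of 1.09 to 135, and of 9.06 over all peaks. It is a value of each peak from its own call and was used here as a description alone.

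Genes that work with solute carriers were described with the same counts. Carriers and partners without an SLC symbol, such as MPC1, gave 18 tested regions in 11 genes, with 2 higher in KD IN, both in MFSD2A, a lysolipid carrier, and 3 lower. The lower ones were SFXN2, a mitochondrial serine carrier family member (68 reads in NC IN and 2 in KD IN), SV2A, a synaptic vesicle protein (log2 -3.80; adjusted p = 7.53e-08), and NIPAL3 (log2 -1.78; adjusted p = 0.018). The amino acid sensing genes of the mTORC1 pathway gave 15 tested regions in 8 genes, of which 1 was higher, in TFEB, a regulator of lysosomal genes (1.29; adjusted p = 0.00016), and 0 lower. The P-type and V-type ATPases, which set up the ion gradients that many carriers use, gave 12 tested regions in 4 genes, of which 5 in 3 genes were higher in KD IN and 0 lower. Among them were ATP6V1F (log2 0.58; adjusted p = 0.000136) and ATP6AP1 (log2 0.70; adjusted p = 0.0484), parts of the proton pump. The background for KD IN over NC IN, 17.9% higher and 21.9% lower, is the one given above, and some names on the first list (TMEM104, MFSD5, MFSD9, MFSD10, MFSD14A, MFSD4B and TMEM241) are older names of genes that now have an SLC symbol and were counted as SLC genes.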

How the data were processed

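The authors deposited 1 table of peaks with 12 columns of raw counts, whole reads per peak and library without normalization. It also holds the authors' fold enrichment of IP over input, a ratio per peak that the deposited score equals, the authors' p-value and adjusted p-value of each peak call, the deposited log2 change in enrichment with its p-values, and the deposited length in bases. The submitters' processing notes name fastp 0.23.4 and the build GRCh38, with no role for the tool. The aligner, the peak caller, the counter and its use of strand are not given in the sources used here.

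A peak belonged to an SLC gene when it overlapped the RefSeq body of that gene in GRCh38, on either strand. Gene strand and starts came from the RefSeq promoter table, which holds 93 of the 111 genes. Overlap between the NC and KD peak sets and the merging into clusters also ignored strand, a choice made after seeing the data. Counts were fitted on the whole table with edgeR 4.0.16 in R 4.3.3 (filterByExpr with a minimum count of 10 and a minimum total of 15, TMM scaling, 4 group means, 8 residual degrees of freedom, quasi-likelihood F test, two-sided), with Benjamini-Hochberg adjustment over 5113 regions. For a group with 0 reads the floor was 3 counts in the group as a whole, and groups with 1 to 3 reads have a ratio with a 95% counting interval. These floors and intervals describe counting error alone, because PCR reads lacking molecular identifiers can repeat a molecule.

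Named by rule were, in each comparison, the 10 highest and 10 lowest called regions with no overlap between the libraries compared (1 for each gene), the 5 smallest p of the enrichment change, the gene with the most reads of each substrate class, and genes with at least 3 peaks; SLC2A3 and SLC6A8 came in by the last rules, SLC1A3 was chosen after its values were seen, and not every region so named is printed. The members and all gene lists were chosen with earlier results of these data known, and SLC4A1AP and SLC7A6OS were moved between substrate classes after the files were seen. Samples were grouped by library name, with IN taken as input. Alternatives were DESeq2 1.42.0, no filter, replicate blocks, library size alone, a minimum of 50 reads, 1 region per cluster, regions in 1 gene only, other thresholds and leaving out each library. The fit was tested on simulated data. A few genes that the rule names are not reported here.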

Additional observations from a re-analysis of the deposited data

How the results depend on the processing

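None of the 119 values of named regions reversed under any alternative run; of 595 under other settings 559 kept their side of the threshold, 35 lost it and 1 gained it, and of 1424 with a library left out 1325 kept it, 92 lost it and 7 gained it. Counts of SLC calls beyond 1.5 times of those reported were, for NC IP over NC IN, 26 of 55 with 1 region per cluster (42 of 80 reported), and, for KD IP over KD IN, 19 of 55 with 1 region per cluster and 17 with adjusted p under 0.01 (33 reported); fewer regions or a stricter threshold account for these by construction. With a library left out the counts ranged from 33 to 48 for NC IP over NC IN, 23 to 39 for KD IP over KD IN, 31 to 38 for KD IN over NC IN, 26 to 36 for KD IP over NC IP and 0 to 0 for the change in enrichment. Without the filter they were 44, 33, 45, 37 and 0 of 195, and DESeq2 gave 43, 36, 33, 35 and 0. Over all regions the change in enrichment had 0 calls in edgeR, 21 in DESeq2, 45 without the filter and 16 with a replicate block. Same-numbered libraries did not deviate together (r = -0.084 to 0.063), so the numbers were not taken as pairs; with the replicate block the SLC counts were 34, 30, 32, 33 and 0. Depth limited the 115 regions that were not tested, and regions with an input group at 0 to 3 reads have only a bound or a wide interval.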

Other observations

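Some carriers with several peaks had too few reads for a test, and their reads are given as counts per library without a comparison. SLC35E4, an orphan member of the SLC35 family with 4 NC peaks, had 5, 2 and 3 reads in NC IN, 9, 5 and 8 in NC IP, 5, 6 and 7 in KD IN and 15, 10 and 12 in KD IP in one region, so a gene with NC peaks alone had more IP reads in KD. In another of its regions the KD IP libraries had 0 reads and the KD IN libraries 3, 7 and 9. SLC46A1, the proton-coupled folate transporter, had 3, 5 and 5 reads in NC IP and 0 in each KD IP library in one region, with 0, 0 and 4 reads in NC IN and 1, 3 and 2 in KD IN. SLC44A1, a choline transporter-like protein, had 8, 12 and 5 reads in NC IN against 1 in each NC IP library, and 2, 8 and 7 in KD IN against 2, 4 and 6 in KD IP.

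SLC7A6, a light chain that pairs with SLC3A2, had at most 9 reads in any library of its region with the most reads. SLC30A1, the zinc exporter of the plasma membrane, had 0 reads in each NC IN library, 2, 3 and 5 in NC IP, 3, 0 and 5 in KD IN and 3, 4 and 0 in KD IP. No region analysed here lay in SLC11A1, SLC40A1 or SLC2A1, carriers of iron and glucose known from macrophages.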
